A study of Mus musculus with 18 samples.

Results

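The genes described here are 35 mouse genes of glucose uptake, glycolysis, lactate export and the response to low oxygen. They were listed by name for these functions, but with earlier results of these data known, so the choice was not blind to the data. All 35 were found in the deposited table of 38392 genes, and all 35 were among the 15472 genes with a normalised count of at least 10 in 3 or more of the 18 libraries. RNA was sequenced from CD4 T cells sorted from the small intestine of mice 6 weeks after transfer of donor T cells. Donors were C57BL/6 mice labelled TNa TNb RAG1-/- Foxp3GFP, so every group came from T cells with 1 pair of receptor chains, the rearranged chains of a mouse cloned from a T-cell nucleus, and from cells that could not rearrange others. Hosts were C57BL/6 TCRa-/- TCRb-/- mice, which lack T cells of the alpha-beta lineage of their own and keep gamma-delta T cells. Cells came from 2 sites, the epithelium (intraepithelial lymphocytes, IEL) and the lamina propria below it (LP), and from each site 3 populations were sorted: CD4+CD8α-Foxp3- cells (SP), CD4+CD8α+ cells (DP) and CD4+Foxp3+ regulatory T cells (TR). Each of the 6 groups had 3 libraries. The labels call them biological replicates but name no animals, so p-values measure the spread between these libraries only.

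Glycolysis splits glucose into pyruvate and yields ATP and NADH, and reduction of pyruvate to lactate regenerates the NAD+ that keeps it running. When oxygen is low, prolyl hydroxylases of the Egln family stop marking HIF-1α for degradation, and HIF-1α then raises the transcription of glucose transporters, glycolytic enzymes, lactate exporters and a set of other targets. T cells increase glycolysis on activation through the mTOR and Myc pathways as well, and the gut lumen and the epithelium next to it hold little oxygen.

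The sorts and the libraries were checked first. Cd8a had 3364 to 6444 normalised counts in DP libraries and 3.15 to 113 in the others, and Foxp3 had 66.2 to 164 in TR libraries and 0 to 39.9 in the others. The libraries held 5093955 to 8851347 reads assigned to genes. The summed level of 9 T-cell genes was 16955 to 28279 in every library. One library stood apart, IEL TR 1: its correlation with the other libraries of its group was at most 0.816, while pairs within the 5 other groups reached at least 0.924, and a single gene, Gm26870, took 7.75% of its total. The median SD over genes was 0.547 (log2) in IEL TR against 0.305 to 0.349 in the other groups, and the fit gave IEL TR libraries less weight. Even so, on simulated data, comparisons with IEL TR made more false calls than the threshold allows. Levels of 20 epithelial genes (14 of them tested) summed to 539 to 2245 in IEL and 214 to 524 in LP libraries. Among them, Cdh1 and Epcam followed the population at both sites. Cdh1 had 93.3 to 408 in SP and DP libraries and 3.25 to 9.46 in TR, and Epcam 157 to 372 in TR against 1.03 to 104 elsewhere. B-cell and plasma-cell genes summed to 53.6 to 308 in IEL TR, 148 to 618 in LP TR and 39.8 to 93.2 elsewhere. Gamma-delta T-cell genes, 4 of them in the table and most of the sum outside TR from Tcrg-C4, had a summed level between 1.08 and 8.70 in the TR libraries of both sites. SP libraries had 165 to 274 (LP) and 700 to 887 (IEL), and DP libraries 670 to 731 (LP) and 1316 to 1776 (IEL). Innate lymphoid genes, most of them counts of Il7r, which T cells express too, fell between 4502 and 4846 for LP SP and between 2478 and 3124 for LP TR. Stromal and vessel genes had 100.02 to 129 in LP SP, mostly Pecam1, against 7.46 to 18.3 in LP TR, with Col3a1, Dcn, Pdgfra and Pdgfrb at 0 in both groups. Myeloid genes summed to 578 to 1023 in LP SP and 877 to 1113 in LP TR, with Cst3 the largest part. Lyz2 had 315 counts in LP SP 2 and 183 in LP DP 2, and at most 49.2 in any other library. Csf1r had 32.1 and 22.1 in the same 2 libraries and at most 2.43 elsewhere. The part of these markers in the results below was not tested.

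Promoters are shown for 6 genes because the results below turn on them. Pgk1, Slc16a3, Ddit4, Tpi1 and Ldha were higher in lamina propria TR cells than in SP cells. Averaged over populations, Hk2 differed most of the 35 genes between the sites. Each sequence is the 250 bases before the transcription start in RefSeq (GRCm38.p6), read 5′ to 3′ on the gene's strand, with the core of the HIF recognition site, ACGTG, or its reverse complement CACGT in capitals.
Pgk1, chrX:106186850-106187099, plus strand: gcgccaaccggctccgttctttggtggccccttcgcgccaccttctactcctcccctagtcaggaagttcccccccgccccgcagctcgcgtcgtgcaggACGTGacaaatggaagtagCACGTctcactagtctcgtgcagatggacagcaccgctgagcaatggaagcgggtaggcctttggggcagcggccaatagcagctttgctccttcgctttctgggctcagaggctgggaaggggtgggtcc
Slc16a3, chr11:120948817-120949066, plus strand: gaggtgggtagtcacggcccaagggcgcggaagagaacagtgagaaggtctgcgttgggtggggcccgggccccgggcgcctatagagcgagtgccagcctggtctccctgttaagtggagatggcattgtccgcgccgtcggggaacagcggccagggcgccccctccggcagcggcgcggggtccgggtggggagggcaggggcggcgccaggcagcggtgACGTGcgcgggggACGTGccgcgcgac
Ddit4, chr10:59951771-59952020, minus strand: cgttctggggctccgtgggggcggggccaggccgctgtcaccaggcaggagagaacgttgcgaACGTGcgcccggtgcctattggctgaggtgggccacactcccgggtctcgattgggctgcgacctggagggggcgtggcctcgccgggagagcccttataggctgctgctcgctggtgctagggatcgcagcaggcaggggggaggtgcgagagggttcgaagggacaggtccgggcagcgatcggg
Hk2, chr6:82774455-82774704, minus strand: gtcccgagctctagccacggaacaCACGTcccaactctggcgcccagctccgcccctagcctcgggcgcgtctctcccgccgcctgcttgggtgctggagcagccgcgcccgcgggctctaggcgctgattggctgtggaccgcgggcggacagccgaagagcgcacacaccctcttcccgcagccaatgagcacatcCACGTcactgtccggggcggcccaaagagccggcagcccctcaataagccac
Ldha, chr7:46845554-46845803, plus strand: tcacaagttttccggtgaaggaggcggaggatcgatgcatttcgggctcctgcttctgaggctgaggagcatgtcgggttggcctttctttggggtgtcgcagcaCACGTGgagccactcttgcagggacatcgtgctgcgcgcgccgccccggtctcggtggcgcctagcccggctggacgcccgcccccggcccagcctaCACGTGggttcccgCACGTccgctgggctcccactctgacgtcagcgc
Tpi1, chr6:124814159-124814408, minus strand: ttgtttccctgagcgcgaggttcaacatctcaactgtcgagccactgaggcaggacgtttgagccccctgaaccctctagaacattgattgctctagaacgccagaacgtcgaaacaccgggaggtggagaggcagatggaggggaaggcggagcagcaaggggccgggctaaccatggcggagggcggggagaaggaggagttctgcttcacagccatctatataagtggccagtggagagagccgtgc

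For Ldha, Slc16a3, Tpi1 and Ddit4 the RefSeq start lies inside the gene's span in GENCODE. With positions given for the centre base of each match, Pgk1 holds its matches 148 and 129 bases before the start, Slc16a3 25 and 12, Hk2 224 and 50, and Ddit4 a single match at 185. Ldha holds 5 matches, 4 of them from a pair of palindromes CACGTG that read as ACGTG on both strands, and the Tpi1 window holds no match. Of the 35 genes, 33 had a promoter in the RefSeq table, all except Slc2a3 and Bnip3l. ACGTG on either strand was in 16 of these 33 (48.5%) and in 3083 of 17492 promoters of the same length in all (17.6%). GCGTG, the other form of the core, was in 17 of 33 (51.5%) against 33.7% of all promoters, and CACGTG, which overlaps ACGTG, in 5 of 33 (15.2%) against 6.65%. The genes with ACGTG included some whose levels passed in no comparison of groups below, such as Slc2a1, Pfkfb3 and Egln1. A match is a run of letters in this window and was not tested as a site of binding.

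Values below are normalised counts, reads per gene divided by a factor for each library. To compare genes with each other, values were also divided by the length of the gene's exons in kilobases. On that scale the mean over the 18 libraries was highest for Ldha, lactate dehydrogenase A (858 per kb), Aldoa, aldolase A (837), Pkm, pyruvate kinase (601), Pgk1, phosphoglycerate kinase (475) and Gapdh, glyceraldehyde-3-phosphate dehydrogenase (370). It was lowest for Vegfa, a growth factor for blood vessels (1.71), and for Pfkfb4, a regulator of phosphofructokinase (2.04). Vegfa reached 10 normalised counts in 4 libraries, Pfkfb4 in 6, Aldoc in 7, Pfkm in 13 and Slc16a3 in 14, so small changes of these genes were not detectable at this depth. The 35 genes together took 0.252% to 0.310% of all counts in IEL SP libraries, 0.256% to 0.351% in IEL DP and 0.278%, 0.441% and 0.447% in IEL TR. The lamina propria values were 0.306% to 0.423% in SP, 0.289% to 0.307% in DP and 0.419% to 0.545% in TR libraries. LP TR libraries were above all LP DP libraries, and 1 LP SP library, LP SP 2 (0.423%), lay within the LP TR range.

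**Figure D1:**
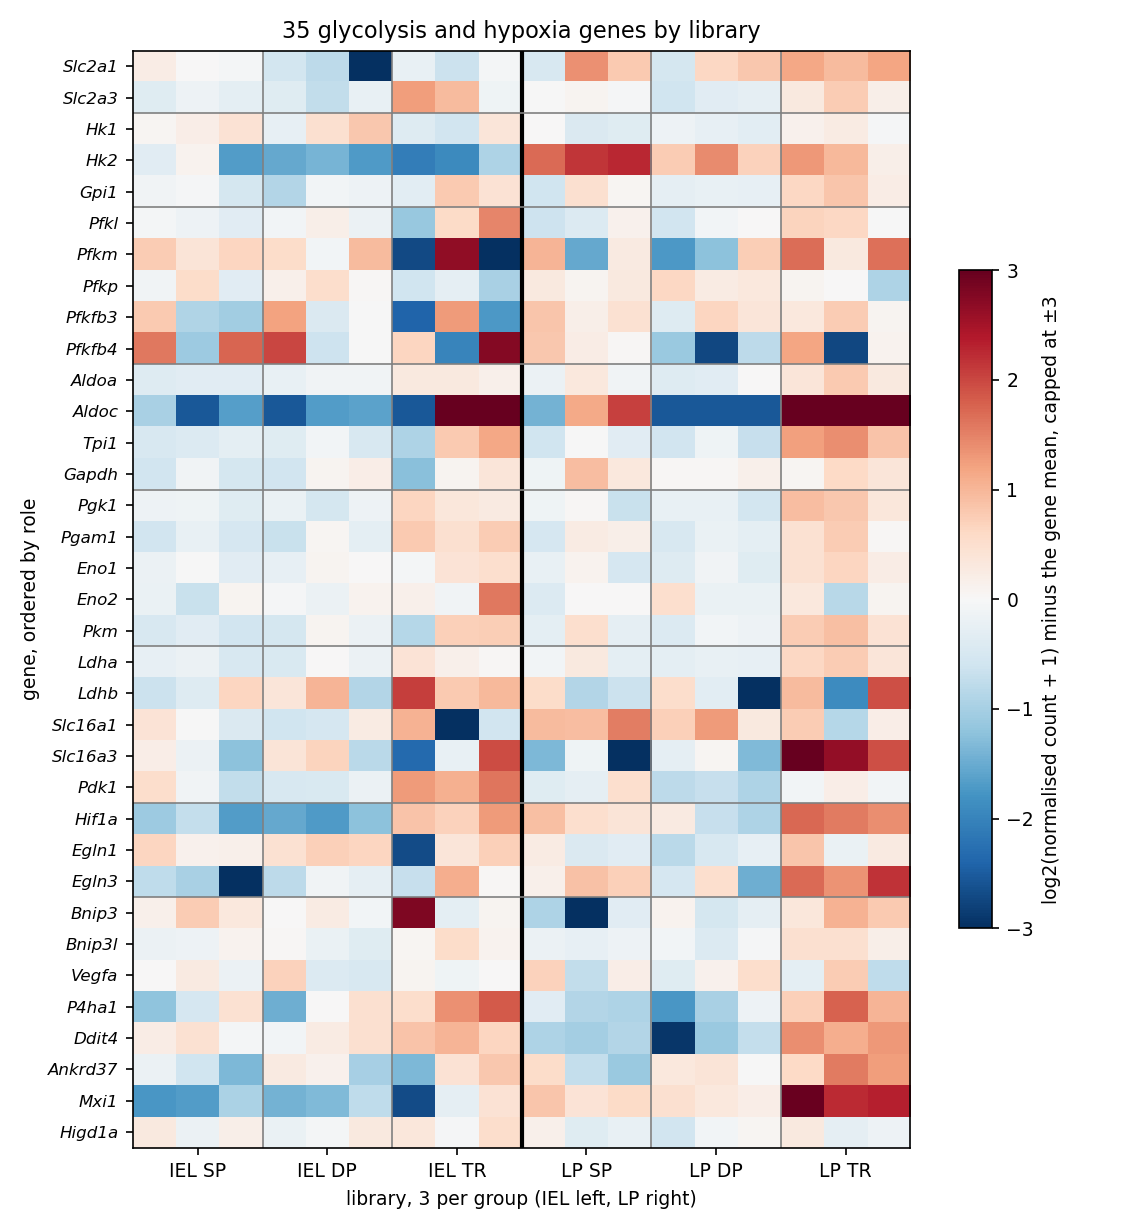
Level of each of the 35 genes (rows, by role) in each of the 18 libraries (columns, by group) as log2(normalised count + 1) minus the gene's mean over all libraries, with colours capped at 3 in either direction. The 3 LP TR columns are above the mean for most enzymes and targets, and most IEL columns of the Hk2 and Mxi1 rows are below the mean.

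Tests used limma on log2(normalised count + 1) over all 15472 genes, with Benjamini-Hochberg adjusted p-values called under 0.05. "Passed" and "called" refer to this fit unless another tool or setting is named. Of the 35 genes, 18 differed somewhere among the 6 groups, where 26.5% of all genes did. In the lamina propria, TR cells expressed 11 of the 35 genes (31.4%) at a higher level than SP cells and none at a lower level, where 8.2% of all genes were called in either direction and 4.56% were called higher. The median log2 fold change of the 35 was 0.58 against -0.01 for all genes, and 27 of the 35 were above 0. The 11 were Tpi1, Aldoc, Pgk1, Eno1, Ldha, Slc16a3, Bnip3, Bnip3l, P4ha1, Ddit4 and Mxi1. Against DP cells of the same site, 17 of the 35 (48.6%) were higher in TR cells, where 13.8% of all genes were called and 8.19% were called in this direction. The number called there was 11 to 18 when 1 library was left out, and it fell with edgeR. In that comparison the median of DP against TR was -0.81 for the 35 and 0.01 for all genes. Both comparisons share the LP TR libraries.

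In the epithelium, TR against SP gave 1 call, Hif1a, higher in TR, where 4.95% of all genes were called and 2.37% were called higher. The median of the 35 was 0.50 there against -0.05 for all genes, and 25 of the 35 were above 0. Without IEL TR 1 the comparison gave 5 calls, and without IEL TR 2 none. DP against TR in the epithelium gave 3 calls, Slc2a3, Pdk1 and Hif1a, all lower in DP, where 6.55% of all genes were called and 3.24% were called lower. With both sites averaged, TR against the mean of DP and SP gave 15 higher and 1 lower of the 35, where 16% of all genes were called, 8.6% higher and 7.4% lower. No fit limited to the compared groups was run for it. In this comparison the median was 0.59 for the 35 and -0.05 for all genes. The number called in it was 10 without IEL TR 2 or without IEL TR 3, and 22 (20 higher, 2 lower) without IEL TR 1. The number called in LP TR against LP SP was 5 without LP TR 1 or without LP TR 2, and 7 without LP SP 1 or without LP SP 3. All 3 LP TR libraries lay above the 6 other LP libraries for 15 of the 35 genes (9.31% of all genes did), and all 3 IEL TR libraries above the 6 other IEL libraries for 9 (9.45%). For 6 genes, Slc2a3, Pgk1, Ldha, Hif1a, P4ha1 and Ddit4, this held at both sites, as it did for 4.29% of all genes.

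**Figure D2:**
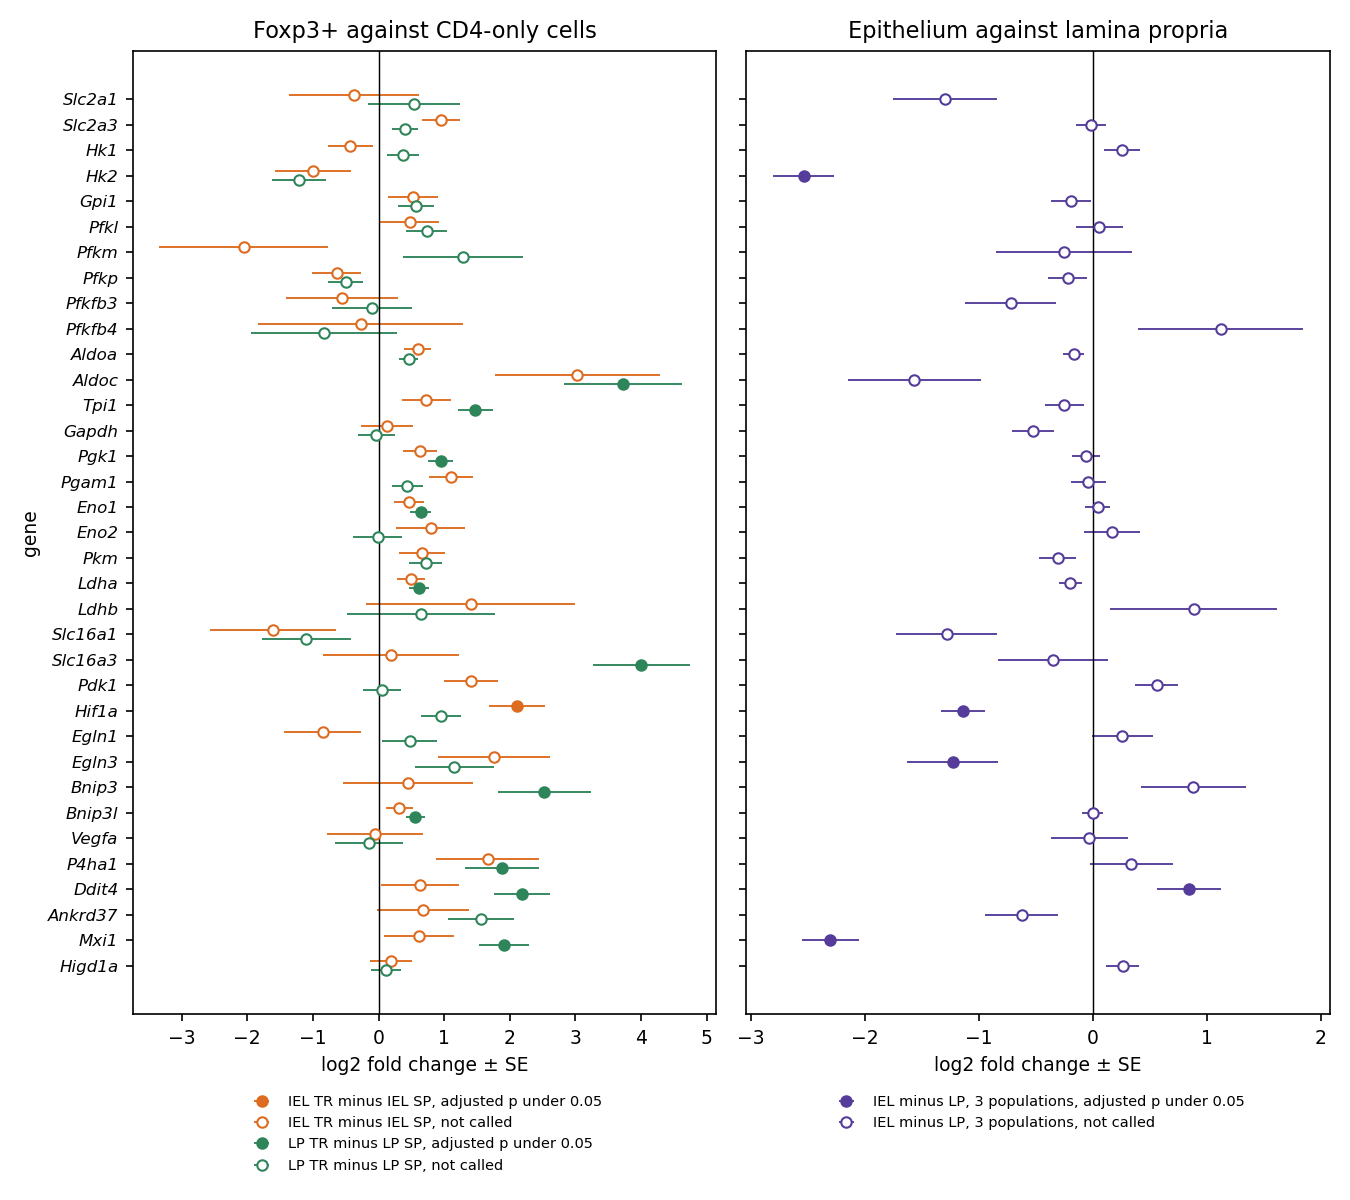
Log2 fold change with its standard error for each of the 35 genes, by limma. The left panel shows TR against SP in the epithelium (orange) and in the lamina propria (green), and the right panel shows IEL against LP averaged over the 3 populations; filled points have an adjusted p under 0.05. Filled green points lie to the right of 0, and Hk2 and Mxi1 lie farthest to the left in the right panel.

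Glucose enters T cells through Slc2a1 (GLUT1) and Slc2a3 (GLUT3). Slc2a3 (ENSMUSG00000003153) had 523, 606 and 554 normalised counts in IEL SP, 523, 402 and 577 in IEL DP and 1604, 1301 and 613 in IEL TR. LP libraries had 667, 709 and 663 in SP, 447, 534 and 560 in DP and 828, 1145 and 767 in TR. At each site every TR library was above every other library, though IEL TR 3 was above the highest IEL SP library by a small margin. Averaged over sites, TR was higher by 0.83 ± 0.16 (log2, SE; limma adjusted p = 0.00192). DP was below TR in the lamina propria by a log2 fold change of -0.81 (adjusted p = 0.00921), a call lost without LP TR 2 (0.0594), with no weights (0.0810) and with edgeR (0.0832). In the epithelium DP against TR gave -1.13 (0.0271), a call lost without IEL DP 2 (0.0708), IEL TR 1 (0.0834) or IEL TR 2 (0.202), with only the 2 groups fitted (0.162) and with equal totals (0.0536). Slc2a1 ranged from 5.58 to 106 in IEL and from 62.9 to 234 in LP libraries and passed in no comparison by limma. IEL against LP for Slc2a1 was -1.30 ± 0.46 (limma adjusted p = 0.0611), and it was called under 6 alternatives, among them edgeR (0.0182), DESeq2 (0.00214) and limma with no weights (0.0300).

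Hexokinase traps glucose as glucose-6-phosphate. Hk2 (ENSMUSG00000000628, GRCm38 chromosome 6, 82725025 to 82774454, minus strand), the inducible form, had 180, 246 and 71.3 normalised counts in IEL SP, 78.0, 86.0 and 69.8 in IEL DP and 53.6, 60.5 and 119 in IEL TR. LP libraries had 743, 1009 and 1094 in SP, 391, 613 and 367 in DP and 567, 451 and 258 in TR. All 9 LP libraries were above all 9 IEL libraries, which was so for 1.73% of all genes and for no other of the 35. The mean was 5.69-fold higher in LP, and IEL against LP averaged over populations was -2.54 ± 0.27 (limma adjusted p = 8.31e-06). The difference passed in SP (-2.66, adjusted p = 0.000506) and in DP (-2.50, 0.000517). In TR it was of similar size (-2.45, 0.0475), but that call was lost without any 1 of 13 libraries, with adjusted p up to 0.290, with only the 2 TR groups fitted (0.115), with equal totals (0.0600) and with weights by group and expression level (0.121). Within the lamina propria, TR against SP was -1.21 ± 0.41 (adjusted p = 0.0936), which did not pass, although it did with the replicate block (0.0487) and with weights by group and expression level (0.0300). Hk1, the constitutive hexokinase, ranged from 192 to 502 in all libraries and passed in no comparison.

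The share of Hk2 in the summed level per kb of Hk1 and Hk2 turned over between the sites. It was 39.6% ± 16.5 (SD, n = 3) in IEL SP, 23.9% ± 7.52 in IEL DP and 29.4% ± 3.19 in IEL TR, against 84.4% ± 5.14 in LP SP, 72.0% ± 5.52 in LP DP and 64.8% ± 7.70 in LP TR. The difference was 42.8 points lower in IEL (two-sided exact permutation test within populations, p = 0.00025, adjusted p = 0.00779 over 33 tests of 11 such shares). It kept its call without any single library. Gpi1, which turns glucose-6-phosphate into fructose-6-phosphate, ranged from 1562 to 2365 counts among LP TR libraries, against 876 to 1872 for LP SP and 1097 to 1147 for LP DP. DP against TR passed there (-0.81, limma adjusted p = 0.0483), and the call was lost without any 1 of 10 libraries, with adjusted p up to 0.186, and under 6 of 11 other settings, edgeR (0.130) and DESeq2 (0.0532) among them.

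Phosphofructokinase commits sugar to glycolysis, and the shares of its subunits differed in TR cells. Pfkp, the platelet form, fell in TR cells averaged over sites (-0.66 ± 0.21, limma adjusted p = 0.0428), a call kept in 9 of 18 fits that each left out 1 library (adjusted p up to 0.207) and lost with weights by group and expression level (0.05002). It had 1336, 1286 and 671 counts in LP TR, all below the 6 other LP libraries, where 7.12% of all genes had such an order. Pfkl, the liver form, had 171, 562 and 1042 in IEL TR against 298 to 430 in the other IEL libraries, and 607, 584 and 376 in LP TR against 245 to 417. Its level did not pass in any comparison by limma (DESeq2 called TR against the others, 0.72, adjusted p = 0.0303), and 1 LP TR library lay inside the LP range of the other populations. As a share of the 3 subunits per kb, Pfkl was 16.9 points higher in TR (exact permutation test, p = 0.000992, adjusted p = 0.00779) and Pfkp was 20.4 points lower (p = 0.00128, adjusted p = 0.00779). Both shares kept their call without any single library. The Pfkl share was 43.4%, 45.9% and 45.1% in LP TR and 28.8%, 41.8% and 76.2% in IEL TR. Pfkm, Pfkfb3 and Pfkfb4, a muscle subunit and a pair of regulatory enzymes, passed in no comparison.

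**Figure D3:**
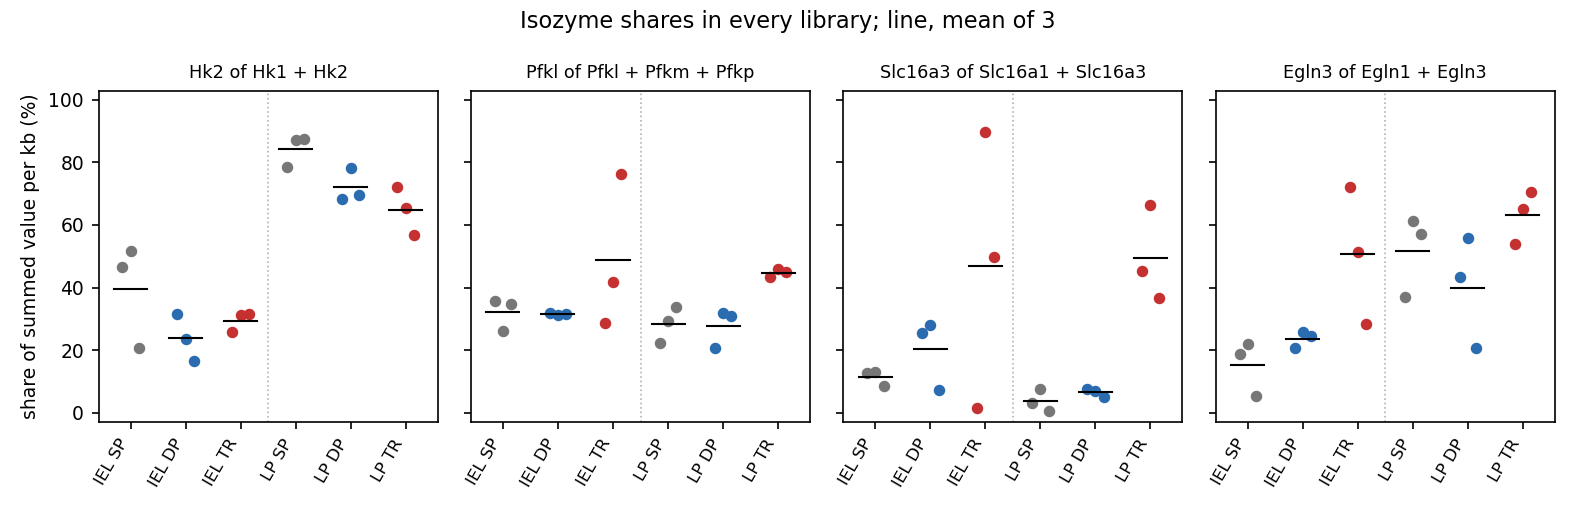
Share of the summed level per kb, in percent, for Hk2 (of Hk1 and Hk2), Pfkl (of Pfkl, Pfkm and Pfkp), Slc16a3 (of Slc16a1 and Slc16a3) and Egln3 (of Egln1 and Egln3), with a point per library and a line at the mean of each group of 3. Hk2 separates LP from IEL libraries, and the shares of Pfkl, Slc16a3 and Egln3 are higher in most TR libraries, with a wide spread in IEL TR for Pfkl and Slc16a3.

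Among the aldolase and triose steps, Tpi1 had the smallest adjusted p of the 35 genes in LP TR against SP. Tpi1, triosephosphate isomerase (ENSMUSG00000023456, chromosome 6, 124810586 to 124814296, minus strand), had 322, 487 and 382 normalised counts in LP SP, 329, 449 and 299 in LP DP and 1141, 1283 and 881 in LP TR. In the epithelium it had 349, 365 and 399 in SP, 376, 461 and 348 in DP and 256, 838 and 1085 in TR. The LP TR libraries were clear of every other LP library, while IEL TR 1 was below all of the IEL SP and DP libraries and the other IEL TR libraries above them. TR exceeded SP in LP by 1.47 ± 0.27 (limma adjusted p = 0.00253) and LP DP against TR was -1.62 (0.000381), and both kept their call without any single library. TR against SP in the epithelium was 0.73 ± 0.38 (0.334).

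Aldoc, the brain form of aldolase, was low outside TR cells and was 0 in IEL TR 1. It had 131, 112 and 105 normalised counts in LP TR and 0, 57.8 and 50.5 in IEL TR, against 1.17, 11.9 and 23.2 in LP SP and 0 in every LP DP library. The IEL SP and DP libraries held 2.00 or less. Outside TR, only LP SP 2 and LP SP 3 reached 10 counts, so Aldoc met the minimum of 3 libraries through the TR libraries. Its tests for TR, and its place in the counts of genes higher in TR, are therefore not independent of that filter. Taking 3 reads as the most that a count of 0 allows in each LP DP library (2.82 normalised counts), the LP TR mean was at least 41.1-fold higher than LP DP, for counting error only. LP TR against SP was 3.73 ± 0.90 (limma adjusted p = 0.0165), a call lost without LP SP 1 (0.0724), LP TR 1 (0.0660) or LP TR 2 (0.0501), and lost with no weights and with edgeR and DESeq2 on the reads. With Aldoc set at its bound, the median of the 35 in LP DP against TR stayed at -0.81. Averaged over sites, TR was higher by 4.22 (adjusted p = 0.000609). Even so, Aldoc stayed a small part of aldolase: its share of Aldoa and Aldoc was 1.97 points higher in TR (exact permutation test, p = 0.000992, adjusted p = 0.00779).

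Aldoa itself had 3061, 4074 and 2899 counts in LP TR against 1816 to 2966 in the other LP libraries. It had 2924, 2902 and 2627 in IEL TR against 1825 to 2201 in the other IEL libraries. The IEL groups did not overlap, and 1 LP SP library (2966) lay inside the LP TR range. Averaged over sites, TR was higher by 0.54 ± 0.11 (limma adjusted p = 0.00351), and LP DP against TR was -0.72 (0.00198). Gapdh, often used as a reference gene, ranged from 603 to 2749 and passed in no comparison by limma without a block, with TR against the others at 0.05 ± 0.22 (0.924). With the replicate block it was lower in IEL than in LP among SP cells (-0.78, 0.0206) and averaged over populations (-0.52, 0.0141).

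Of the 5 genes of the later steps of glycolysis (Pgk1, Pgam1, Eno1, Eno2 and Pkm), 4 were higher in TR cells with both sites averaged. Among all genes, 8.6% were called higher there. For 2 of the 4, Eno1 and Pkm, the call rested on single libraries as given below. Pgk1 (ENSMUSG00000062070, chromosome X, 106187100 to 106203699, plus strand) had 924, 1035 and 637 normalised counts in LP SP, 866, 871 and 693 in LP DP and 1916, 1768 and 1287 in LP TR. It had 906, 922 and 794 in IEL SP, 886, 698 and 916 in IEL DP and 1586, 1283 and 1217 in IEL TR. At both sites the TR libraries lay above all the others. TR against the others was 0.83 ± 0.15 averaged over sites (limma adjusted p = 0.00104), and LP TR against SP was 0.94 ± 0.19 (0.00484). The latter was called without any single library but not with only the 2 groups fitted (0.0577).

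Pgam1, phosphoglycerate mutase, was higher in TR averaged over sites by 0.82 ± 0.19 (limma adjusted p = 0.00644), with 663, 530 and 646 counts in IEL TR against 238 to 400 in the other IEL libraries. Eno1, enolase 1, was higher by 0.54 ± 0.13 (0.00802), and Pkm by 0.68 ± 0.20 (0.0275). Eno1 lost this call without IEL TR 2 or IEL TR 3 (up to 0.0712) and with equal totals (0.0618). Pkm lost it without IEL TR 2, IEL TR 3, LP TR 1 or LP TR 2 (up to 0.182), with equal totals (0.0999) and with quantile normalisation (0.0796). Pkm had 4743, 5244 and 3818 counts in LP TR against 2112 to 3995 in the other LP libraries, with 1 overlap. IEL TR 1, at 1562, was below every other IEL library for Pkm, while IEL TR 2 and 3 had 4604 and 4700. In the lamina propria alone, Eno1 was higher in TR than in SP by 0.64 (0.0221), a call lost without LP SP 1, LP SP 3, LP TR 1 or LP TR 2 (up to 0.138). It was also lost with only the 2 groups fitted (0.0957), equal totals (0.0641), quantile normalisation (0.0534) and edgeR (0.0600). Eno2, the neuronal enolase, had 11.2 to 63.6 counts and passed in no comparison. Reads could be shared with near-identical copies of some of these genes: Pgk1-rs7 was listed at 48.8% of the level of Pgk1, Pgam1-ps1 and Pgam1-ps2 together at 91.0% of Pgam1 and Eno1b at 39.9% of Eno1. The ratio of TR to SP for these copies and for the Ldha pseudogenes lay between 1.44 and 2.81, so the copies were higher in TR as well.

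Lactate production and export came next. Ldha (ENSMUSG00000063229, chromosome 7, 46841475 to 46855627, plus strand) had 2585, 3383 and 2245 normalised counts in LP SP, 2236, 2364 and 2311 in LP DP and 4264, 4638 and 3559 in LP TR. In the epithelium it had 2310, 2453 and 1984 in SP, 2013, 2791 and 2436 in DP and 3640, 3064 and 2836 in TR. TR libraries were above all others at both sites, with IEL TR 3 (2836) and IEL DP 2 (2791) close together. Averaged over sites, TR was higher by 0.59 ± 0.12 (limma adjusted p = 0.00281). LP TR against SP was 0.61 ± 0.15 (0.0199), a call lost without LP SP 1, LP SP 3, LP TR 1 or LP TR 2 (up to 0.124) and with only the 2 groups fitted (0.0909). Ldhb, the form that favours the reverse reaction, ranged from 0.940 to 151 and passed in no comparison.

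Slc16a3 (MCT4; ENSMUSG00000025161, chromosome 11, 120948480 to 120960868, plus strand) exports lactate and is a HIF-1α target. It had 9.37, 23.1 and 2.32 normalised counts in LP SP, 20.6, 26.3 and 9.42 in LP DP and 210, 163 and 98.6 in LP TR. In the epithelium it had 29.0, 22.4 and 10.2 in SP, 33.1, 40.5 and 13.9 in DP and 4.20, 21.3 and 100 in TR. The LP TR libraries were all far above the other LP libraries, while in the epithelium IEL TR 3 alone was high. TR exceeded SP in LP by 4.01 ± 0.74 (limma adjusted p = 0.00280), called without any single library, and LP DP against TR was -3.04 (0.00744), the latter lost with edgeR (0.0543). In the epithelium TR against SP was 0.19 ± 1.04 (0.960). The difference between the sites in this contrast was -3.81 ± 1.27, with an unadjusted p of 0.00894 and a limma adjusted p of 0.410, so it did not pass.

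Slc16a1 (MCT1), which carries lactate in both directions, ranged from 2.06 to 258 in IEL and from 68.4 to 360 in LP libraries and passed in no comparison. IEL against LP averaged over populations was -1.28 for Slc16a1 (limma adjusted p = 0.0578), called with quantile normalisation (0.0383) and with weights by group and expression level (0.0470). The share of Slc16a3 in the pair per kb was 3.74% in LP SP, 6.47% in LP DP and 49.5% ± 15.4 in LP TR, and it was 1.33%, 89.6% and 49.9% in the IEL TR libraries. The share was 37.7 points higher in TR over both sites (exact permutation test, p = 0.00113, adjusted p = 0.00779), and this held without any single library. In IEL TR 2, the share of 89.6% went with only 2.06 counts of Slc16a1. Slc16a3 itself (21.3) lay there within the range of the IEL SP and DP libraries (10.2 to 40.5). The pair summed to 23.4 counts in that library, so the alternative that asked for at least 50 in every library left this share out. Pdk1, the kinase that shuts pyruvate out of mitochondrial oxidation, had 420, 362 and 528 counts in IEL TR against 104 to 250 in the other IEL libraries. In LP TR it had 163, 198 and 164, inside the LP SP range of 135 to 246. DP against TR in the epithelium was -1.68 (limma adjusted p = 0.0218), a call lost without IEL DP 2 (0.0528), IEL TR 2 (0.111) or IEL TR 3 (0.171), and with equal totals (0.0624). Averaged over sites TR was higher by 0.99 (0.00680), a call lost without IEL TR 3 (0.0612).

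**Figure D4:**
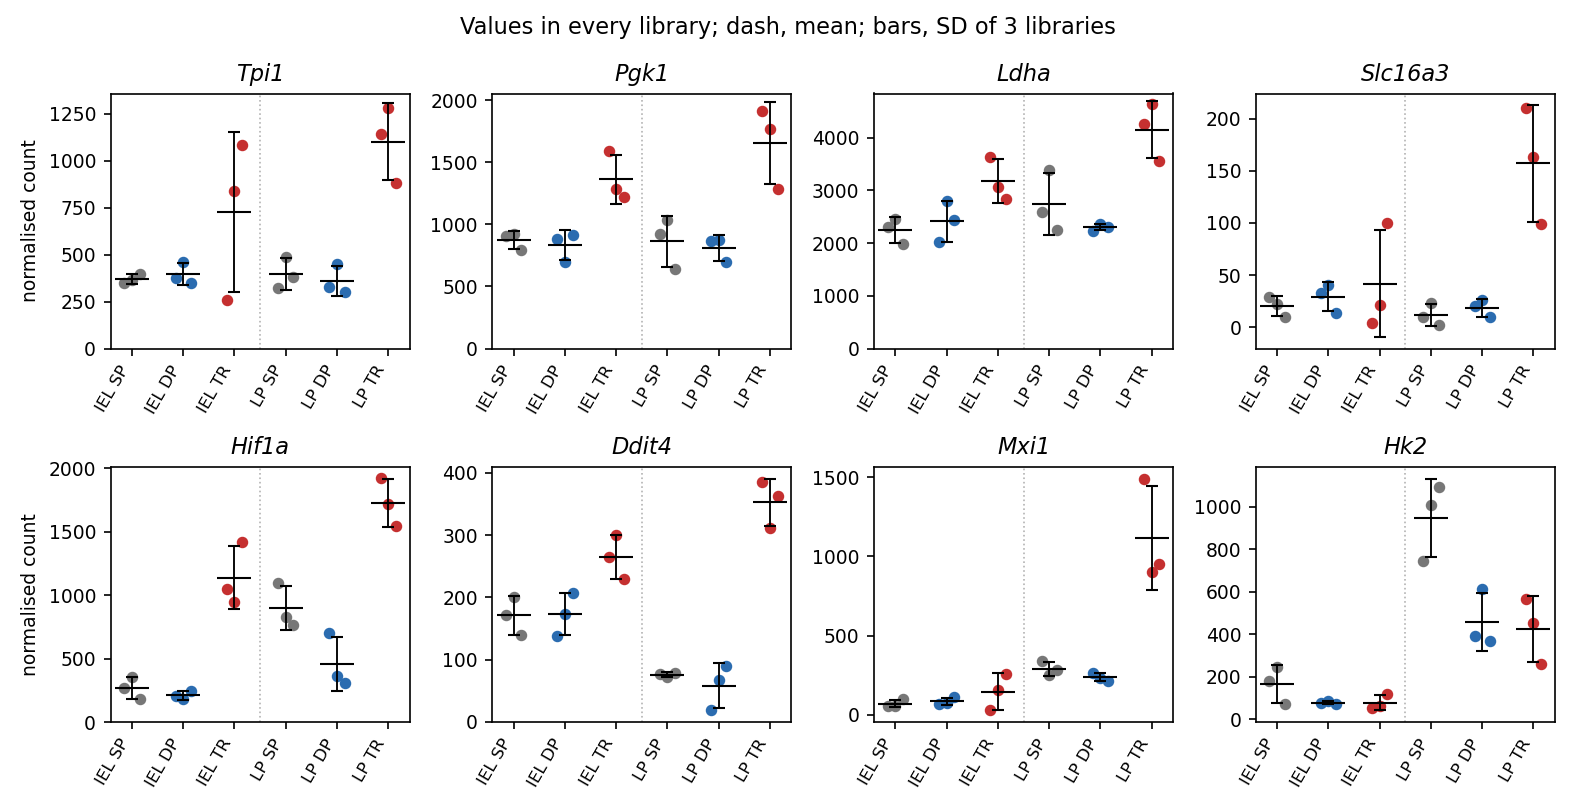
Normalised counts of Tpi1, Pgk1, Ldha, Slc16a3, Hif1a, Ddit4, Mxi1 and Hk2 in each library, with the mean and SD of each group of 3. LP TR is the highest group for all of these except Hk2, which is highest in LP SP, and IEL TR libraries spread widely for Tpi1 and Slc16a3.

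Hif1a (ENSMUSG00000021109, chromosome 12, 73901375 to 73947530, plus strand), the gene of HIF-1α, whose protein oxygen controls through its degradation, had 272, 353 and 181 normalised counts in IEL SP, 202, 180 and 246 in IEL DP and 1052, 944 and 1420 in IEL TR. LP libraries had 1100, 830 and 768 in SP, 701, 363 and 305 in DP and 1924, 1717 and 1544 in TR. TR libraries were above all others at both sites, and the IEL SP and DP libraries (180 to 353) lay below every LP SP library. TR against the others was 1.87 ± 0.24 averaged over sites (limma adjusted p = 4.68e-05) and kept its call without any single library. TR against SP was 2.11 ± 0.42 in the epithelium (0.00842), a call lost without IEL TR 2 (0.0693) or IEL TR 3 (0.0983) and kept with only the 2 groups fitted (0.0473). TR against SP in the lamina propria was 0.95 ± 0.30 (0.0663), which passed in 4 of 11 alternatives (0.0191 with only the 2 groups fitted), and DP against TR was -2.01 (0.000159). DP against TR was -2.43 in the epithelium (0.00234).

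Hif1a also differed between the sites. IEL against LP averaged over populations was -1.14 ± 0.20 (limma adjusted p = 0.000746), with -1.77 in SP (0.00105) and -1.03 in DP (0.0245). The DP call was lost without IEL DP 2 (0.111) or LP DP 1 (0.0922), with only the 2 groups fitted (0.107) and with no weights (0.0547). In TR the difference was -0.62 ± 0.43 (0.614). The prolyl hydroxylase Egln3, itself a HIF target, had 143, 112 and 198 counts in LP TR against 15.1 to 80.6 in the other LP libraries, and LP DP against TR was -2.23 (0.0156), lost without LP DP 3, LP TR 1 or LP TR 3 (up to 0.0793) and with edgeR (0.0524). It was lower in IEL than LP in SP cells (-2.19, 0.0285), a call lost without IEL SP 3 (0.0922), LP SP 2 (0.0889) or LP SP 3 (0.116). It was also lost with only the 2 groups fitted (0.1001), no weights (0.0513), no filter (0.0512) and edgeR (0.0802). Its share of Egln1 and Egln3 per kb was 24.2 points higher in TR (exact permutation test, p = 0.00142, adjusted p = 0.00779), lost without LP TR 3 (0.0585). This pair summed to 39.9 counts in its lowest library, so the alternative that asked for at least 50 left it out. Egln1, the main oxygen sensor, ranged from 13.7 to 166 and passed in no comparison, though with only the 2 DP groups fitted it was higher in IEL (1.12, 0.0322).

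Of the 8 other HIF targets, 5 were higher in LP TR than in LP SP, where 4.56% of all genes were called higher, with a median log2 fold change of 1.72 over the 8. Ddit4 (REDD1, an inhibitor of mTORC1; ENSMUSG00000020108, chromosome 10, 59949669 to 59951834, minus strand) had 77.3, 72.4 and 78.8 normalised counts in LP SP, 18.6, 67.1 and 89.5 in LP DP and 385, 311 and 363 in LP TR. In the epithelium it had 172, 201 and 140 in SP, 139, 174 and 206 in DP and 265, 300 and 230 in TR. The LP TR libraries were the highest of all and the LP SP and DP libraries the lowest, with the epithelium between them. LP TR against SP was 2.19 ± 0.43 (limma adjusted p = 0.00422) and LP DP against TR was -2.84 (0.000168), both called without any single library. TR against SP in the epithelium was 0.63 ± 0.60 (0.668). In DP cells Ddit4 was higher in IEL than in LP (1.80, 0.00780), a call lost with only the 2 groups fitted (0.109). Averaged over populations it was higher in IEL by 0.84 ± 0.28 (0.0474), a call lost without any 1 of 12 libraries (up to 0.147) and with quantile normalisation (0.0643).

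Mxi1, an antagonist of Myc that HIF induces (ENSMUSG00000025025, chromosome 19, 53310518 to 53375810, plus strand), had 339, 253 and 280 normalised counts in LP SP, 266, 235 and 217 in LP DP and 1491, 902 and 954 in LP TR. In the epithelium it had 56.1, 58.6 and 97.6 in SP, 70.5, 74.5 and 112 in DP and 28.4, 157 and 256 in TR. LP TR was clear of all other groups, and within each population the LP libraries were above the IEL libraries. TR exceeded SP in LP by 1.91 ± 0.38 (limma adjusted p = 0.00482), called without any single library and lost with no weights (0.0592). IEL against LP averaged over populations was -2.31 ± 0.25 (9.22e-06), with -2.06 in SP (0.00205), -1.50 in DP (0.0114) and -3.36 in TR (0.00432). The DP call was lost without IEL DP 2 (0.0573), with no weights (0.146) and with edgeR (0.0998), and the TR call with only the 2 TR groups fitted (0.130). Averaged over sites TR was higher by 1.26 (0.00821), a call lost without IEL TR 2 or IEL TR 3 (up to 0.0824).

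P4ha1, a collagen prolyl hydroxylase, had 306, 637 and 379 counts in LP TR against 54.6 to 169 in the other LP libraries, and 269, 483 and 669 in IEL TR against 67.3 to 261. TR against the others was 1.81 (limma adjusted p = 0.00952), lost without IEL TR 2 or IEL TR 3 (up to 0.0755). LP TR against SP was 1.88 (0.0496), a call lost without any 1 of 12 libraries (up to 0.177) and under 6 of 11 other settings, edgeR (0.0613) among them. The mitophagy receptors Bnip3 and Bnip3l were higher in LP TR than LP SP by 2.53 (0.0378) and 0.56 (0.0250). Bnip3 lost its call without LP SP 2 or any 1 LP TR library (up to 0.115), and its log2 fold change was 1.36 without LP SP 2. It also lost its call under 6 of 11 other settings, among them only the 2 groups fitted (0.177), edgeR (0.248) and DESeq2 (0.136). Bnip3l lost its call without any 1 LP SP library, LP TR 1 or LP TR 2 (up to 0.105), with only the 2 groups fitted (0.0510), with quantile normalisation (0.0714) and with edgeR (0.0600). Bnip3 was low, at 37.9, 62.2 and 52.4 in LP TR against 15.2, 0.750 and 23.2 in LP SP, and its highest library was IEL TR 1 at 214. Ankrd37 (1.56, 0.0705), Higd1a (0.11, 0.850) and Vegfa (-0.15, 0.916) did not pass in this comparison, and Ankrd37 did with the replicate block (0.0480). The counting is not stated to use strand, so reads of Tpi1, Gapdh, Aldoa, Pfkp, Pfkm, Mxi1 and Ankrd37 cannot be told apart from those of protein-coding genes that overlap them on the opposite strand. The same holds for non-coding genes opposite Hk2, Hif1a, Gpi1, Slc2a1, Hk1, Pfkfb3, Bnip3 and Higd1a.

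The sites differed at 5 of the 35 genes. IEL against LP averaged over populations gave 1 higher (Ddit4) and 4 lower (Hk2, Hif1a, Egln3 and Mxi1), where 17.9% of all genes were called, 9.63% lower and 8.3% higher. Within populations, 4 were lower in IEL among SP cells (Hk2, Hif1a, Egln3 and Mxi1, with 9.29% of all genes called and 5.51% lower), 3 were lower and 1 higher among DP cells (Hk2, Hif1a and Mxi1 lower and Ddit4 higher, with 11.3% called, 6.48% lower and 4.85% higher), and 2 were lower among TR cells (Hk2 and Mxi1, with 1.81% called and 1.47% lower). The averaged Egln3 call (-1.23, limma adjusted p = 0.0420) was lost without any 1 of 12 libraries (up to 0.113) and with equal totals (0.0600). No glycolytic enzyme after hexokinase was called between the sites in the main limma fit. Alternatives called Gapdh with the replicate block, given above, and Aldoc averaged over populations. Aldoc was lower in IEL with a pseudocount of 5 (-1.11, limma adjusted p = 0.0311) and with quantile normalisation (-1.57, 0.0426). The share of Slc2a3 among both glucose transporters per kb was 13.0 points higher in IEL (exact permutation test, p = 0.00800, adjusted p = 0.0340) and that of Egln3 was 21.8 points lower (p = 0.00825, adjusted p = 0.0340), each lost without any 1 of 8 libraries (up to 0.0761 and 0.0660). Epithelial genes moved with the sites, 6 of 14 tested being higher in IEL averaged over populations (Krt8, Krt20, Fabp1, Fabp2, Reg3b and Reg3g). Immediate-early and dissociation-associated genes did too, 9 of 19 tested being lower in IEL, where 9.63% of all genes were. In LP TR, 8 of 19 were lower than in LP SP, where 3.63% of all genes were. In IEL TR against SP none was lower and 2 were higher, Dusp1 (1.89) and Nfkbia (1.97), where 2.37% of all genes were higher. The part of both gene sets in these differences was not tested. In bulk samples, fewer cells of a type and less RNA per cell cannot be told apart.

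The DP cells, CD4 cells that have gained CD8α, differed from SP cells at few of these genes. No gene of the 35 was called in IEL DP against IEL SP by limma (0.291% of all genes were), edgeR or DESeq2. There 3 had an unadjusted limma p under 0.05 (Slc2a1, Hk2 and Egln3), as did 1151 of all 15472 genes. In LP DP against LP SP none was called by limma (0.789% of all genes were), none by edgeR and 1 by DESeq2 (Aldoc, -6.13, adjusted p = 0.0327). There 5 had an unadjusted limma p under 0.05 (Hk2, Aldoc, Pdk1, Hif1a and Bnip3), as did 1416 of all genes. Averaged over sites none was called by limma (1.23% of all genes were), none by edgeR and 1 by DESeq2 (Hk2, -1.07, adjusted p = 0.0208, with limma -0.99, adjusted p = 0.122). In that average 6 had an unadjusted limma p under 0.05, as did 1502 of all genes. Hif1a had lower counts in LP DP (701, 363 and 305) than in LP SP (768 to 1100) without overlap, an order found for 7.97% of all genes, and the difference did not pass. The change from SP to TR or from SP to DP did not pass a test of its difference between the sites for any of the 35 by limma, where 0.123% and 0% of all genes did. In each of these 2 tests 3 genes had an unadjusted p under 0.05, Slc16a3, Pdk1 and Hif1a for TR and Aldoa, Aldoc and Egln3 for DP, and none was called by edgeR or DESeq2. Of all genes, 1284 for TR and 969 for DP had an unadjusted p under 0.05.

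Other genes of the same pathways were read as lists of their own, in the main fit only, so their calls were put to no alternative. Of 16 tested genes of other glycolytic and hexose steps, none was higher and 1 was lower in LP TR than in LP SP, where 8.2% of all genes were called, 4.56% higher and 3.63% lower. With both sites averaged, Pgm2l1, which makes glucose bisphosphate, was lower in TR (-1.78), the 1 call of that list, where 7.4% of all genes were lower. Of 20 genes of pyruvate and lactate handling, none was higher and 2 were lower in LP TR than SP: Emb, a chaperone of the lactate transporters (-1.02), and Pdhb, a subunit of pyruvate dehydrogenase (-0.56). With both sites averaged, Pdha1, another subunit of that enzyme, was higher in TR (0.59), the 1 call of that list, where 8.6% of all genes were higher. None of 9 pentose phosphate genes was called in LP TR against SP. With both sites averaged, Rpe, an epimerase of that pathway, was lower in TR (-0.64).

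Of 15 genes of the HIF machinery, 2 were higher in TR averaged over sites, where 8.6% of all genes were called higher. They were Epas1 (HIF-2α, 1.54) and Tceb2 (elongin B, a partner of VHL, 0.35). Epas1 varied widely in IEL TR, at 124 ± 144 normalised counts (SD, n = 3), against 37.3 ± 5.63 in IEL SP. In the lamina propria it had 216 ± 64.4 in TR and 123 ± 58.6 in SP. Of 25 other hypoxia-induced genes, 2 were higher and 1 lower in LP TR than SP, where 4.56% of all genes were higher and 3.63% lower. The median log2 fold change of the 25 in that comparison was -0.13. Ndrg1, a marker of hypoxia, rose by 3.20, with 317 ± 55.9 (SD, n = 3) normalised counts in LP TR, 34.0 in LP SP and 7.13 in IEL TR, and Ccng2, a cyclin that restrains growth, rose by 0.77. Bhlhe40, a transcription factor of activated T cells, fell by 1.18 there and was lower in IEL than LP (-3.02), as was Tfrc, the transferrin receptor (-2.30). In the epithelium the mean of Ndrg1 was 7.13 in TR, against 17.9 in SP and 7.01 in DP. With both sites averaged, Ndrg1 was higher in TR (1.88, from the LP TR libraries) and Fam162a lower (-0.75), the only calls of that list. Of all genes, 8.6% were called higher and 7.4% lower. The median of the 25 was -0.05 there and -0.305 in IEL TR against SP. Of 23 upstream regulators, 2 were higher and 2 lower in LP TR than SP, set against the same shares of all genes. Arrdc4, an arrestin that responds to glucose and restrains its uptake, was higher in TR at both sites, by 4.82 in the epithelium (limma adjusted p = 0.00380) and by 3.68 in the lamina propria (0.00127). IEL TR libraries had 362 ± 243 normalised counts of it (SD, n = 3) against 9.997 ± 0.660 for IEL SP, and LP TR libraries had 258 ± 50.2 against a mean of 21.1 for LP SP. Sesn1, a sestrin that restrains mTORC1, rose by 2.16 in LP TR and Rictor, a subunit of mTORC2, fell by 0.83. With both sites averaged, 3 of the 23 were higher in TR and 5 lower, against 8.6% and 7.4% of all genes. Among them were Arrdc4 (4.56), Sesn1 (1.73) and Rptor, a subunit of mTORC1 (-2.16). Between the sites, 8 of these 23 regulators were lower in IEL and none higher, where 9.63% of all genes were lower and 8.3% higher, among them Slc3a2, the heavy chain of amino acid transporters (-1.99), and Foxo1 (-1.42).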

How the data were processed

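RNA-seq values were deposited as normalised counts, a signal in which the authors divided the reads of each gene by a factor for each library; per the submitters' processing notes, TopHat, HTSeq and the mm10 build were used, with no versions, and how the factors were computed is not given in the sources used here. All values (100%) were whole multiples of 1 step per library within a tolerance of 0.1 of a step, so the raw count of each gene was recovered from the deposited values; the libraries hold 5093955 to 8851347 reads (median 5903164). The recovered counts were used only for alternatives. Of the deposited gene IDs, 36639 are in GENCODE M21, which gave coordinates and exon lengths.

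Genes with at least 10 normalised counts in 3 libraries were tested as log2(value + 1) with limma 3.58.1 in R 4.3.3 over all 6 groups, with variance weights by group (0.352 for IEL TR, 1.05 to 1.35 for the others) and Benjamini-Hochberg adjustment; fold changes understate those of low genes. Isozyme shares used two-sided exact permutation tests within the other factor, adjusted over 33 tests. Alternatives were pseudocounts 0.5 and 5, no filter, equal totals, quantile normalisation, edgeR 4.0.16 with TMM and DESeq2 1.42.0 on recovered reads, no weights, only the groups compared, a replicate block and leaving out each library. On simulated data, comparisons with IEL TR made more false calls than the threshold allows. The fit limited to the compared groups is therefore quoted beside each named call of the 35 genes between a pair of groups that it ends. It was not run for comparisons averaged over sites or populations, so their calls were not put to it. Calls of genes from the other pathway lists and of marker genes come from the main fit only, and were put to no alternative. All 35 genes are named; from other pathway lists, genes called and among the 3 smallest p-values of a list in a comparison. The genes and lists were chosen with earlier results of these data known. Limits for counts of 0 cover counting error only, since reads carried no molecular identifiers.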

Additional observations from a re-analysis of the deposited data

How the results depend on the processing

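Counts of the 35 genes called changed with the processing in these cases, and the cause was not tested. The counts in this section stand without the share of all genes called under the same setting. A change in a count therefore cannot be read as particular to these genes. IEL TR against SP (1 call) gave 6 with no weights, 2 with only the groups compared, 2 with no filter, 6 with edgeR, 10 with DESeq2, 2 with the replicate block and 4 with weights by group and expression level, a setting chosen after seeing the data. LP TR against SP (11) gave 7 with no weights, 7 with only the groups compared and 6 with edgeR. IEL DP against TR (3) gave 5 with no weights, 1 with equal totals, 6 with edgeR and 8 with DESeq2. LP DP against TR (17) gave 10 with edgeR. IEL against LP gave 2 with no weights in DP (4), and 0 with only the groups compared and 1 with equal totals in TR (2). Averaged over populations (5), it gave 8 with a pseudocount of 5 and 8 with weights by group and expression level. DESeq2 gave 1 call in LP DP against SP and 1 in DP against SP averaged over sites (0 by limma in each). Isozyme shares (8 calls) gave 5 over sets summing to at least 50 in every library.

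Leaving out 1 library gave 0 to 5 calls in IEL TR against SP, 5 to 13 in LP TR against SP, 1 to 4 in IEL DP against TR, 11 to 18 in LP DP against TR, 0 to 1 in LP DP against SP and in DP against SP averaged, 10 to 22 in TR against the others, 3 to 7 in IEL against LP for SP, 3 to 6 for DP, 1 to 2 for TR and 3 to 7 averaged, and 5 to 11 for shares. Over the genes and shares called by limma and all settings, 1747 values kept their call, 216 lost it and 0 reversed. With all libraries kept, alternatives also called 23 of the 35 genes where limma did not, in 40 pairs of gene and comparison and 104 cases over all settings. Equal totals moved the median of all genes by -0.14 in IEL TR against SP, 0.18 in IEL DP against TR and -0.10 in TR against the others.

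Same-numbered libraries deviated together only weakly: over 45 pairs the correlation was 0.00053 to 0.0887 (median 0.0385), 0 of them over 0.1, although all 18 libraries correlated best with their own number. The main fit did not pair the libraries by number. The labels do not say whether same-numbered libraries shared animals or a batch, and this was not tested. With the replicate block, 16 genes were called in LP TR against SP (15 higher), 2 in IEL TR against SP, 19 in TR against the others, 17 in LP DP against TR and 6 in IEL against LP.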
